A study of Mus musculus with 4 samples.

Results

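The enzymes of the mevalonate pathway were examined in liver RNA of microsomic (M) mice, which are born small in an inbred line, and of control (C) littermates. The 8 genes followed (Acat2, Hmgcs1, Mvk, Pmvk, Mvd, Idi1, Fdps and Fdft1) were taken by name from the 36161 gene names of an Agilent mouse array, on which they have 11 of 55681 probes. The 4 groups, with 1 array each, were M females (MF), M males (MM), C females (CF) and C males (CM). All 4 are whole liver of C57BL/6J fetuses at embryonic day 20 by their labels, which name no treatment or transgene. The methods describe newborn C57BL/6 N mice and 3 independent experiments per group, of which 1 array per group was analysed here, and the number of animals behind an array is not given. The microsomic animals were chosen by weight alone, so a group is defined by size and not by a known cause of it.

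The pathway builds isoprenoids from acetyl-CoA. Acat2 joins acetyl-CoA units in the cytosol, Hmgcs1 makes HMG-CoA, the precursor of mevalonate, Mvk and Pmvk add phosphates to mevalonate, and Mvd decarboxylates the product to isopentenyl pyrophosphate. Idi1 isomerises this unit, Fdps condenses such units into farnesyl pyrophosphate, and Fdft1 joins farnesyl pyrophosphate into squalene, the entry to sterol synthesis. The liver is a main site of cholesterol synthesis, and these genes are known as targets of SREBP2, a membrane-bound transcription factor that is released when sterols in the cell are low and that acts with the factors NF-Y and Sp1.

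To see which motifs their promoters hold, the 250 bases before the start of each gene were taken from RefSeq (GRCm38.p6). It held 6 of the 8 genes in 7 windows (2 for Pmvk). They were searched on both strands for TCACNCCAC, the core of a sterol regulatory element, for CCAAT, the NF-Y box, for GGGCGG, the Sp1 box, and for the E-box CACGTG. No match overlapped a match of another motif. The windows of 4 genes at different steps of the pathway are printed, and these genes were all higher on both M arrays. They are the 4 that held both CCAAT and GGGCGG, so their likeness comes in part from this choice. Acat2, also higher on both M arrays, held 1 GGGCGG and 0 CCAAT. The first Pmvk window held 1 CCAAT and 0 GGGCGG. Capitals mark the matches, CCAAT reads ATTGG and GGGCGG reads CCGCCC on the opposite strand, and bases inside a neighbouring gene (55 for Mvk, 17 for Mvd) are left out.
Hmgcs1 (chr13:119690101-119690350, plus strand): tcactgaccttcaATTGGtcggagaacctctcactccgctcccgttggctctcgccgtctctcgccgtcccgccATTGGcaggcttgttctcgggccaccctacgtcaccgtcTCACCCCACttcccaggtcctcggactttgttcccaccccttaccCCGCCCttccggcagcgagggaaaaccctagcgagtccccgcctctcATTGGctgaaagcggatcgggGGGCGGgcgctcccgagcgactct
Mvk (chr5:114444074-114444268, plus strand): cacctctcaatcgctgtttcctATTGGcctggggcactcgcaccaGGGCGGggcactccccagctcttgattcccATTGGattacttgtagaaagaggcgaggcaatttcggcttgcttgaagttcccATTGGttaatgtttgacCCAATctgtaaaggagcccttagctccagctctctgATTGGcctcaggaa
Mvd (chr8:122443423-122443655, minus strand): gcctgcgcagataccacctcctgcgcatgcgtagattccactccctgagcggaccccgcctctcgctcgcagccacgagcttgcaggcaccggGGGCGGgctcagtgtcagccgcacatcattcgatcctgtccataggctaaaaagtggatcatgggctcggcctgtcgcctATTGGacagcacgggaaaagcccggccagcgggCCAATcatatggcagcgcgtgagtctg
Idi1 (chr13:8885356-8885605, plus strand): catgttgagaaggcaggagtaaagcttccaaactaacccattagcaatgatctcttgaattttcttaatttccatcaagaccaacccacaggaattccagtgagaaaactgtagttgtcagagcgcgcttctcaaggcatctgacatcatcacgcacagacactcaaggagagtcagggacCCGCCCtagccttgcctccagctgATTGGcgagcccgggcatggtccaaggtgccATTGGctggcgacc
The sterol core was found in Hmgcs1 and in none of the other 5 genes, against 1.05% of 32851 promoters of the same length. CCAAT stood in 5 of the 6 genes against 33.8% of promoters, with 5 copies in Mvk and 3 in Hmgcs1. GGGCGG stood in 5 of 6 against 32.7%, and CACGTG in 0 of 6 against 6.02%. The members were counted by gene, with Pmvk counted if either of its 2 windows matched, whereas the shares are over single windows. The second Pmvk window held 0 CCAAT and 0 GGGCGG. These matches describe the letters of the windows, and binding was not measured.

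A level below is the log2 processed signal of a probe from which the 75th percentile of its array was subtracted. They can be compared between arrays for a given probe and not between probes. Signal was well above background for 56.1% (CM) to 65.3% (MM) of the 59305 non-control spots. All 7 members that have a spot free of outlier marks were well above background on every array. All 10 hepatocyte markers of a fixed list, Alb and Ttr among them, were well above background on every array, with a summed level (on a linear scale, in units of the 75th percentile) of 6009 (MF), 3660 (MM), 5237 (CF) and 5166 (CM). The CF array also carried genes of heart muscle, with a summed level of 179.9 over 10 genes against 2.49 to 5.93 on the other 3 arrays. For probes printed at 10 spots and well above background, a spot had an SD of 0.24 to 0.30 (log2, 117 probes). The SD of a difference between arrays from this source alone was 0.38 in either M vs C comparison, and since there are no replicate arrays the spread between animals is unknown.

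All 7 mevalonate pathway genes with an unmarked probe passed 1.5-fold in MF vs CF, each higher in MF. Over 25536 genes, 19.9% were this much higher in MF and 21.0% this much lower. All 7 passed 1.5-fold in MM vs CM too, each higher in MM, against 17.7% of 26313 genes higher and 23.1% lower. On all 4 arrays 19298 genes were well above background, and 2.9% of them were over 1.5-fold higher in M in both sexes, as were 3.23% of the 9598 genes as bright as the members. The members' differences ran from 1.15 to 3.44 (log2) in females, with a median of 2.03, and from 0.60 to 1.60 in males, with a median of 0.83. The median of all genes was -0.08 in females and -0.03 in males. Each of these 14 differences was larger than the SD of 0.38 between spots. By probe, 10 of 11 were over 1.5-fold higher in MF, where 19.1% of probes were, and 10 of 11 in MM, where 17.8% were. The 11 include 2 probes with an outlier mark, both over 1.5-fold higher in MF and in MM, whereas the shares leave marked spots out.

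**Figure D1:**
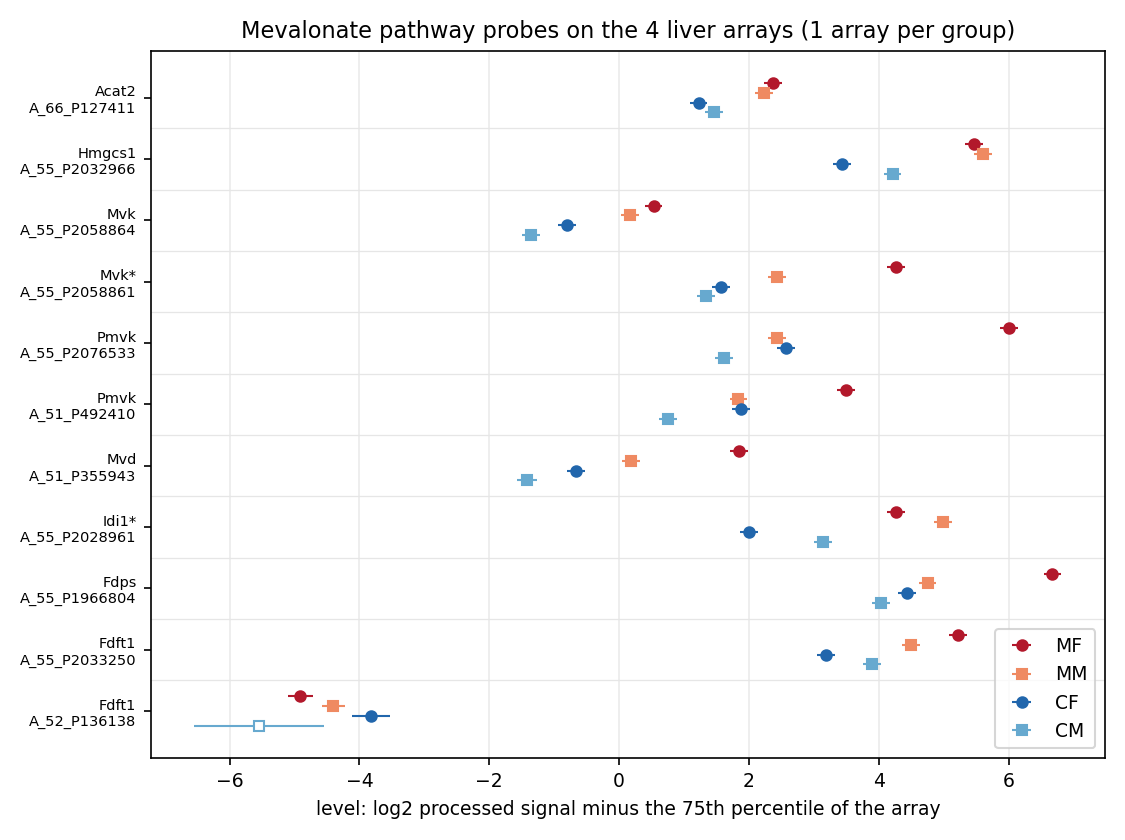
Level of each of the 11 mevalonate pathway probes on the 4 arrays (x axis, log2 scale, relative to the 75th percentile of the array). Points are single arrays, bars the error of the signal given by the scanner software, an open point a signal not well above background, and an asterisk a probe left out for an outlier mark. The M points (red, orange) lie to the right of the C points (blue) for most probes, with the exceptions of Pmvk, where MM lies at or below CF, and of the dim second Fdft1 probe.

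At the first steps, Acat2 (probe A_66_P127411, chr17:13136482-13136541 in mm9, minus strand) had a level of 2.37 (MF), 2.24 (MM), 1.22 (CF) and 1.46 (CM). Both M arrays stood above both C arrays, by 2.22-fold in females and 1.71-fold in males. Its neighbour Acat3, a near-identical copy with which this probe may share signal, had levels of 2.43, 2.94, 2.14 and 2.20 in the same order, a log2 difference of 0.29 in females and 0.74 in males. Hmgcs1 (A_55_P2032966, an unplaced piece of chromosome 13 in mm9, 114793 to 114852, minus strand) had a level of 5.47 (MF), 5.61 (MM), 3.44 (CF) and 4.21 (CM). Its M vs C ratio was 4.09-fold in females and 2.64-fold in males, and the M arrays differed from each other by 0.14, under the spot SD of a difference between them (0.35).

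The kinase Mvk was read by A_55_P2058864 (chr5:114910299-114910358, plus strand) at 0.53 (MF), 0.16 (MM), -0.80 (CF) and -1.36 (CM). On this probe the difference was 1.52 (log2, 2.87-fold) in males and 1.33 (2.51-fold) in females. A second probe, left out for an outlier mark on MF, gave the opposite order of the sexes, with 1.10 in males and 2.69 in females. Pmvk, the next kinase, was read by A_55_P2076533 (chr3:89272867-89272926, plus strand) at 6.01 (MF), 2.44 (MM), 2.57 (CF) and 1.61 (CM). The MF array stood far above the other 3, and MM was slightly below CF, so that the M and C arrays overlapped. The difference was 10.8-fold in females and 1.77-fold in males. A second Pmvk probe (A_51_P492410, chr3:89272739-89272798) kept the order MF, CF, MM, CM with levels of 3.49, 1.88, 1.84 and 0.76, but its MF minus CF difference was 1.62 (3.07-fold) in place of 3.44.

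Mvd (A_51_P355943, chr8:124957750-124957809, minus strand) had a level of 1.85 (MF), 0.19 (MM), -0.66 (CF) and -1.41 (CM). Of the 7 measured members it had the largest difference in males, 3.03-fold, beside 5.70-fold in females. The isomerase Idi1 has 1 probe (A_55_P2028961, chr13:8891524-8891583, plus strand), which was left out of the counts because its spot was marked as non-uniform on MM. It read 4.26 (MF), 4.99 (MM), 2.01 (CF) and 3.14 (CM), so that both M arrays again stood above both C arrays. Its differences were 4.77-fold in females and 3.60-fold in males.

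Fdps (A_55_P1966804, chr3:88897549-88897608, minus strand) had a level of 6.68 (MF), 4.75 (MM), 4.43 (CF) and 4.04 (CM). The difference was 4.74-fold in females and 1.64-fold in males, where the MM array stood 0.32 above CF. With normexp background correction and quantile normalization the male difference of Fdps was -0.01. Fdft1 was read by a probe that spans an intron of 4181 bases (A_55_P2033250, chr14:63765750-63769990, minus strand). Its sequence is given because it crosses an exon junction and so matches the spliced transcript without a break.
Fdft1 A_55_P2033250: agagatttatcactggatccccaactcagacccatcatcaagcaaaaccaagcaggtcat
The junction probe read 5.22 (MF), 4.49 (MM), 3.19 (CF) and 3.89 (CM), a ratio of 4.09-fold in females and 1.52-fold in males. The male value was the member value nearest to the 1.5-fold threshold. A dim second Fdft1 probe (A_52_P136138, chr14:63764562-63764621) read -4.91, -4.40, -3.83 and -5.54 in the same order, was not well above background on CM, and was lower in MF than in CF.

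The C arrays, which differ in sex, were also unequal. From CF to CM the members differed by -0.96 to 0.77 (log2, median -0.40), with 2 over 1.5-fold higher in CM, where 26.6% of genes were, and 2 over 1.5-fold lower, where 19.7% were. The male M vs C difference exceeded the size of this gap for 5 of 7 members, all but Pmvk and Fdft1, and the female difference exceeded it for 7 of 7. Between the M arrays, 4 members were over 1.5-fold lower in MM than in MF, where 20.5% of genes were, and 0 were higher, where 28.9% were. The M vs C difference was larger in females for 6 of 7 members, with Mvk turning on the probe, but with 1 array per group a difference between the sexes was not tested.

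Both M arrays stood above both C arrays for 6 of the 7 members, against 11.6% of the 19298 genes, Pmvk being the exception. limma, fitted across the 4 arrays for size class and for sex with 1 residual degree of freedom, so that the sexes stand in for replicates, estimated M minus C at 0.96 ± 0.42 (log2, SE) for Acat2 and 2.06 ± 0.44 for Mvd. The estimate was 1.72 ± 0.43 for Hmgcs1, 1.42 ± 0.41 for Mvk, 2.13 ± 0.63 for Pmvk, 1.48 ± 0.50 for Fdps and 1.32 ± 0.49 for Fdft1. No member passed an adjusted p of 0.05 (limma, Benjamini-Hochberg over 19298 genes, adjusted p 0.995 for each member), nor did any of the 19298 genes (0.0%, smallest adjusted p 0.966). With 4 arrays the fit was too small to call differences of the members' size, so this count does not show that the groups were alike. Unadjusted limma p-values lay under 0.05 for 6 of the 7 members, against 1.88% of genes higher in M. They ran from 0.00206 for Mvd to 0.0525 for Acat2. The limma estimates rested in part on single arrays. In a fit without a term for sex they ran from 0.35 to 1.79 without MF and from 0.84 to 2.61 without CF. They ran from 1.08 to 2.10 without CM and from 1.03 to 3.92 without MM. Such a fit leaves 1 array in a group, so no count of members passing is given. Without MF the estimate was 0.35 for Pmvk and 0.52 for Fdps. The study's methods used a limma p of 0.01 and a fold of 1.5, and 3 members passed both (Hmgcs1, Mvk and Mvd), as did 0.373% of genes higher in M. The 3 became 0 to 7 with other processing. The 0 came with no filter on dim probes, where 182 of 35577 genes passed in either direction. The 7 came without scaling, where 594 of 19298 genes passed, against 163 as reported.

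**Figure D2:**
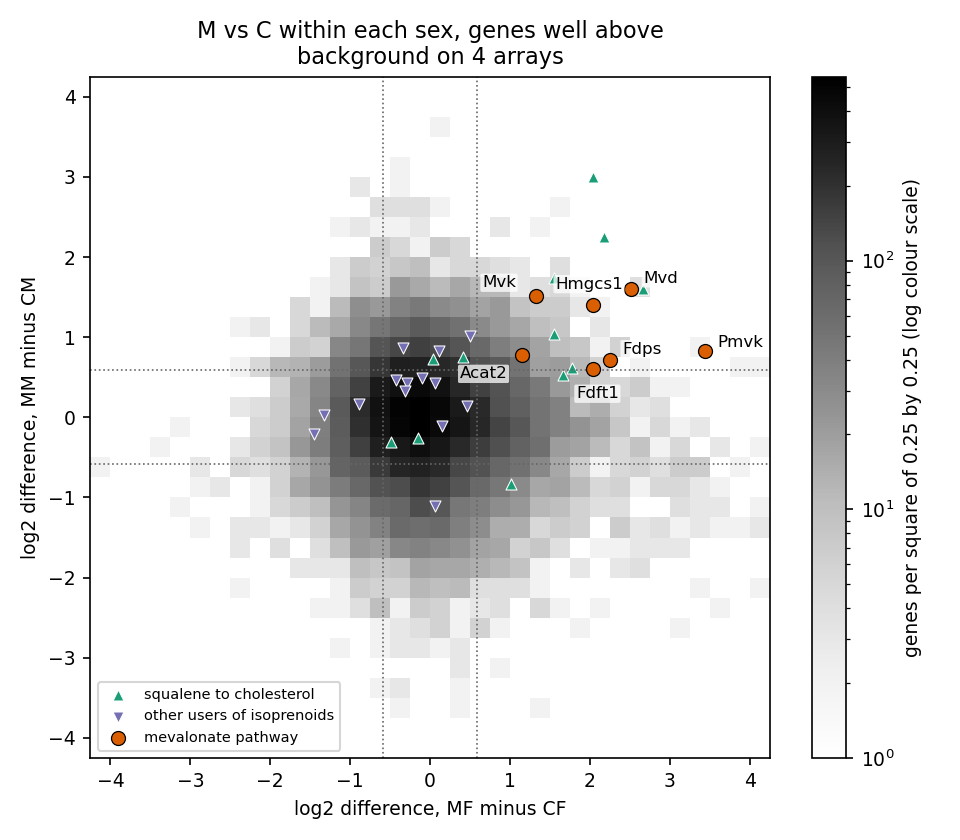
Log2 difference MF minus CF (x axis) and MM minus CM (y axis) for the 19298 genes well above background on 4 arrays (grey, number of genes per square on a log colour scale), with the 7 measured mevalonate pathway genes in orange, the genes from squalene to cholesterol as green triangles and other users of isoprenoids as violet triangles. Dotted lines mark 1.5-fold. All 7 orange points lie in the upper right field. The violet points lie on both sides of 0, some past 1.5-fold, with 6 of 14 above 0 in females and 11 of 14 in males.

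Markers of other organs were unequal between the groups. A list of 10 intestinal genes had a summed level of 104 on MF and 106.8 on MM against 18.1 on CF and 17.1 on CM. By gene, 7 of 8 compared were over 1.5-fold higher and 0 lower in MF vs CF, whereas 2 of 8 were higher and 4 lower in MM vs CM (Vil1, Lct, Sis and Fabp6). The intestinal transcription factor Cdx2 was well above background on MF alone and the goblet cell mucin Muc2 on no array. In MF vs CF, Lct was 72.6-fold higher, Cdx2 at least 38.9-fold, Cdx1 at least 25.2-fold and Vil1 20.9-fold. The genes over 1.5-fold higher in M in both sexes were Fabp2 (3.15 in females and 2.38 in males, log2) and Apoa4 (1.51 and 3.59). Krt20 was higher by 2.66 in females and by 0.39 in males. Of 11 myeloid markers, 10 were over 1.5-fold higher in M and 0 lower in females, where 19.9% of genes were higher. In males 1 was higher and 2 were lower (S100a8 and S100a9), where 17.7% of genes were higher and 23.1% lower. The part of these cells in the result was not tested, and in bulk liver a different share of cells and a different RNA content per cell cannot be told apart. The part of the heart transcripts on CF was not tested either. With CM in place of CF all 7 members were over 1.5-fold higher in MF (0.91 to 4.39, log2), where 21.0% of genes were. With CF in place of CM, 5 of 7 (not Pmvk and Fdps) were over 1.5-fold higher in MM, where 22.6% of genes were. The arrays lay on the same slide with M in 1 column of the slide and C in another, so that position and group cannot be told apart. Stretches rich in C and T were counted in the probes as 5-base windows of C and T only, at least 3 of them C. None of the 11 member probes (0 of 11) had 4 such windows or more, against 8.64% of all probes. With so few probes, 0 is near that share. The most was 3, in both Pmvk probes, and the part of such stretches in the result was not tested.

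From squalene on, the rest of the cholesterol pathway was followed by 12 genes, all well above background on every array. In MF vs CF 8 were over 1.5-fold higher and 0 lower (median 1.55), and in MM vs CM 8 were higher and 1 lower (median 0.74). In both sexes 6 passed. For this list and those below, the shares of all genes over 1.5-fold higher were 19.9% in MF vs CF and 17.7% in MM vs CM. The shares lower were 21.0% and 23.1%. In both sexes 2.9% of the 19298 genes well above background throughout were higher. Cyp51, the sterol demethylase, had levels of 1.26 (MF), 1.94 (MM), -0.77 (CF) and -1.06 (CM), and was 4.10-fold higher in females and 8.0-fold in males. Lss, which cyclises the squalene epoxide to lanosterol, had levels of 3.07, 1.62, 0.90 and -0.64 in the same order and was 4.50-fold and 4.78-fold higher. At the other end of the list stood Lbr, a reductase of the nuclear envelope (-0.15 in females and -0.26 in males, but 1.05 and 0.13 on a second probe), and the isomerase Ebp (-0.49 and -0.31).

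Of 9 genes that control the pathway or take up cholesterol, 7 were over 1.5-fold higher and 1 lower in MF vs CF. In males 4 of 8 were higher and 0 lower, and 4 passed in both sexes. Insig1, a sterol-dependent retention protein of SREBP that is itself an SREBP target, read 4.15 (MF), 2.15 (MM), 0.81 (CF) and 1.25 (CM), a difference of 3.34 (log2) in females and 0.89 in males. Insig2, the related retention protein, differed by -2.26 in females, lower in MF, and by 0.12 in males, and on a second probe by -2.24 and -0.52. Mylip, a ubiquitin ligase for the LDL receptor that answers to LXR and not to SREBP, differed by -0.48 and 0.08, and on a second probe by -1.09 and 0.80.

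The 14 genes that use isoprenoid units for purposes other than sterols (prenylation, dolichol, ubiquinone and transfer RNA) did not share this pattern in the counts. In MF vs CF 0 were over 1.5-fold higher and 3 lower (median -0.20), in MM vs CM 3 were higher and 1 lower (median 0.38), and 0 passed in both sexes. Icmt, which methylates prenylated proteins, differed by 0.50 in females and 1.02 in males, and Fnta, the alpha subunit of farnesyltransferase, by 0.11 and 0.83. The direction turned with the probe, since a second probe gave -0.39 and -1.30 for Icmt and -0.59 and -0.42 for Fnta. The beta subunit Fntb differed by -1.45 and -0.21, and Pdss1, of ubiquinone side chain synthesis, by -1.32 and 0.03. Among 5 paralogs and other enzymes that handle acetyl units, 3 were over 1.5-fold higher in females and 2 in males, and 0 in both. Acly, which supplies cytosolic acetyl-CoA, differed by 3.08 and 0.35 (1.71 and -0.16 on a second probe), and Aacs, which activates acetoacetate in the cytosol, by 1.85 and 0.50. The mitochondrial thiolase Acat1 differed by 0.56 and 0.91. Idi2, the paralog of Idi1, was not well above background on CF, so that MF exceeded it by at least 2.24-fold, and it differed by -1.19 in males.

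**Figure D3:**
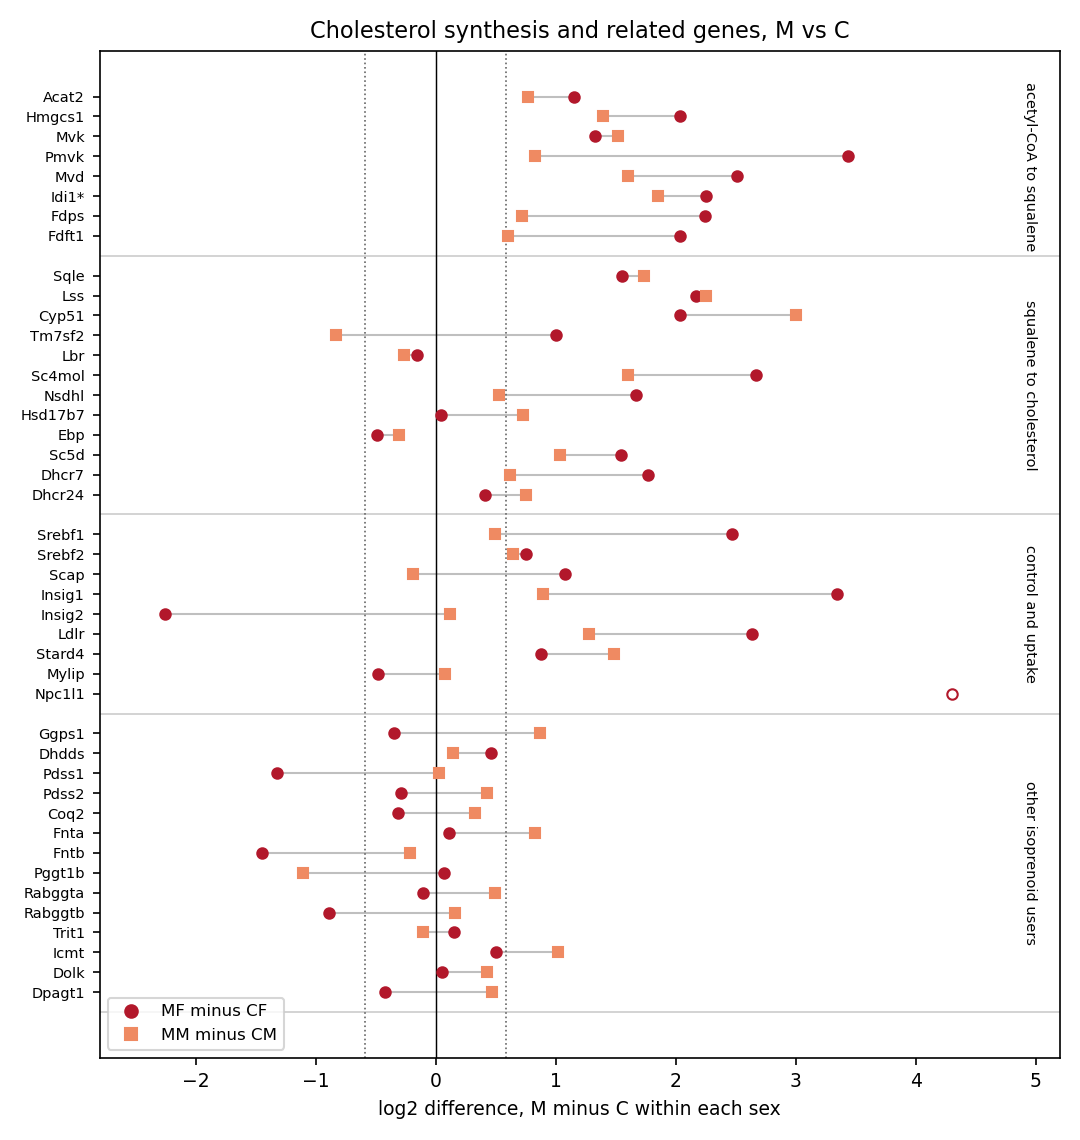
Log2 difference M minus C in females (red circles) and males (orange squares) for each gene of the mevalonate pathway and of 3 related lists, in pathway order from top to bottom. The open circle is a lower bound, the asterisk marks Idi1, whose spot was left out for an outlier mark, and dotted lines mark 1.5-fold. The top block lies to the right of the dotted line in both sexes, whereas the lowest block scatters on both sides of 0, mostly above it in males.

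The mean profile of the 7 members, each centred on its mean over the arrays, was 1.38 (MF), 0.20 (MM), -0.72 (CF) and -0.86 (CM). Among the other genes of this set, the smallest Euclidean distances to it (log2) were those of the unnamed probe A_55_P2003927 (0.18), LOC100504508 (0.20), Foxa3 (0.22), Pfn1 (0.23), Chst12 (0.25), the unnamed probe A_55_P1989765 (0.26), a lincRNA probe of chromosome 14 (0.27) and Nrn1 (0.27). Foxa3, a hepatocyte transcription factor, read 3.76 (MF), 2.41 (MM), 1.44 (CF) and 1.56 (CM). The members themselves lay at distances of 0.57 (Fdps) to 1.87 (Pmvk) from their mean, with 54 to 7759 other genes closer.

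**Figure D4:**
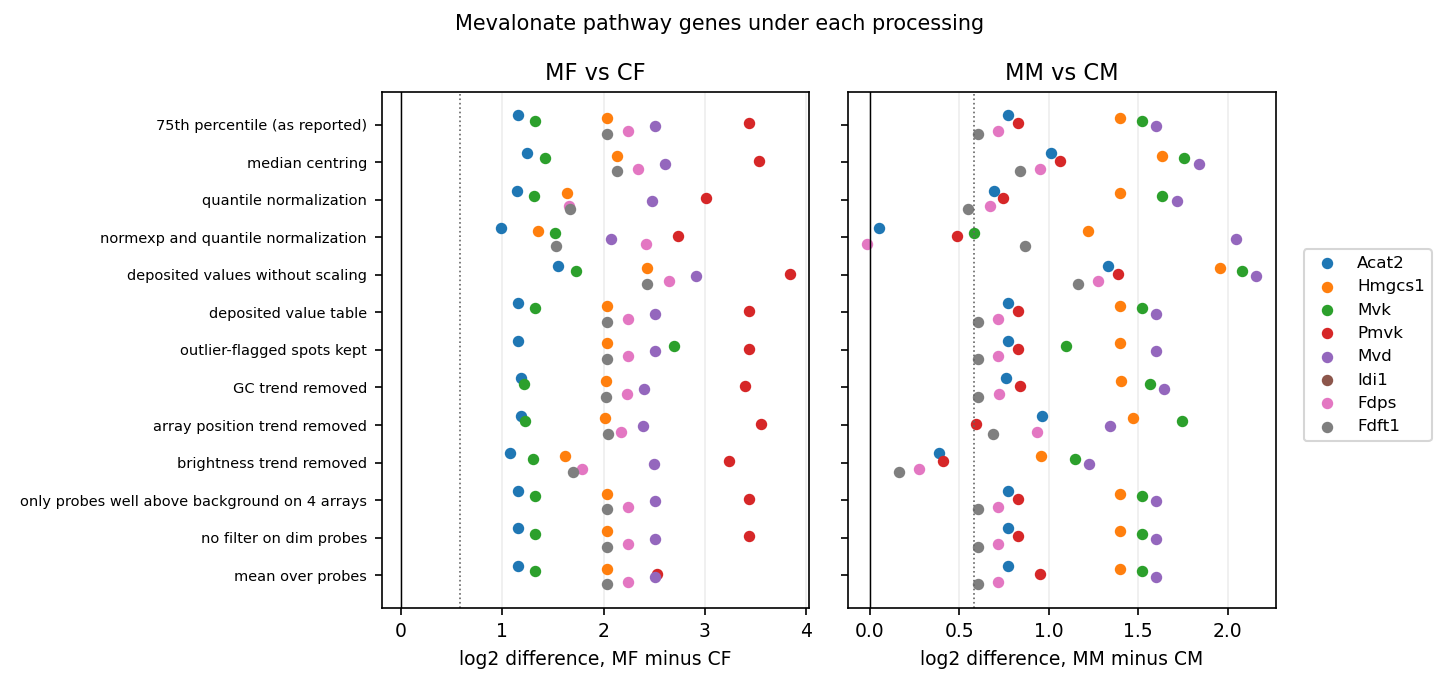
Log2 difference of each mevalonate pathway gene in MF vs CF (left) and MM vs CM (right) under the processing reported and 12 alternatives, of which 3 could not change these values. Points are genes, the solid line marks 0 and the dotted line 1.5-fold. All points in females lie past 1.5-fold, whereas in males normexp correction and the removal of a brightness trend move several genes below it and Fdps to -0.01.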

How the data were processed

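Cy3-labelled liver RNA was hybridized by the authors to Agilent SurePrint G3 Mouse arrays, read in 1 colour, and the scans were processed with Agilent Feature Extraction 10.7.3.1. As the authors deposited it, the processed signal is a linear intensity, background-subtracted and detrended by that software but not normalized between arrays, and their table of values equalled it at each of the 59305 non-control spots. Here its log2 was taken minus the 75th percentile of the array (893 for MF, 925 for MM, 676 for CF, 628 for CM). A spot with a non-uniformity or population outlier mark on 1 array or more was dropped from all 4 (1754 spots), spots of a probe were averaged, and a gene was taken by its brightest probe. A pair of arrays was compared where at least 1 was well above background, with a limit at the lowest such signal on the other. With 1 array per group there is no p-value for a pair. limma 3.58.1 (R 4.3.3) modelled the 4 arrays by size class and sex, with Benjamini-Hochberg adjustment over the 19298 genes that were well above background throughout.

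The genes named are all members with all their probes, the 2 highest and 2 lowest of each list by the mean of both sexes, the paralogs, and the 8 genes of nearest profile. The members and lists were chosen with earlier results of these data known. Some genes of the lists as first fixed are not reported here and are left out of the counts and of the genes named. Markers of other organs (erythroid, adrenal, pancreas, skin) were listed too. Over those lists the summed levels on MF, MM, CF and CM were 3433, 2581, 4497 and 4128 (erythroid), 20.3, 15.7, 18.1 and 19.7 (adrenal), 5.01, 2.53, 3.27 and 4.16 (pancreas), and 2.79, 3.77, 1.99 and 6.07 (skin). Probe positions come from the array annotation (mm9), whereas promoters are from RefSeq on GRCm38.p6, and no position was carried between the builds. Probe positions within coding or untranslated sequence were not analysed here. Alternatives were other scalings, background correction, filters, outlier marks, probe choice, thresholds and trends with GC, position and brightness, and each array left out in turn.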

Additional observations from a re-analysis of the deposited data

Results flagged for a closer look

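The dim second Fdft1 probe (A_52_P136138) went in opposite directions in the sexes, -1.09 (log2) in MF minus CF and 1.14 in MM minus CM as measured, and this difference was not tested. It was not well above background on CM, where its signal gives at least 1.21-fold for MM vs CM. Other genes named from the lists also went in opposite directions, again without a test of the difference. Insig2 differed by -2.26 in females and 0.12 in males, Pdss1 by -1.32 and 0.026, Mylip by -0.48 and 0.077, and Idi2 by 1.16 (a lower bound) and -1.19. Apart from Idi2 and the Fdft1 probe, at least 1 value of each pair was under the SD of 0.38 between spots. A second probe of Insig2 was lower in M in both sexes (-2.24 and -0.52), so that its opposite directions held for 1 probe only, while that of Mylip gave -1.09 and 0.80.

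Spots left out for an outlier mark also held signal. The only Idi1 probe (A_55_P2028961, marked on MM) differed by 2.25 in MF minus CF and by 1.85 in MM minus CM, and with marked spots kept limma gave Idi1 2.05 ± 0.41 (SE, unadjusted limma p 0.0035, adjusted p 0.994). The second Mvk probe (A_55_P2058861, chr5:114910540-114910599, marked on MF) read 4.26 and 2.44 on MF and MM against 1.57 and 1.34 on CF and CM, a difference of 2.69 in females and 1.10 in males. The MF array carried 916 non-uniform spots against 130 to 182 on the others.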

How the results depend on the processing

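Of 12 alternatives, 7 changed every member's log2 difference, 2 changed that of 1 member, and 3 (the deposited table and both filters on dim probes) could not change any. Of the 51 changed values in MF vs CF, 51 were over 1.5-fold (0.98 to 3.84). Of the 51 in MM vs CM, 50 were above 0 and 42 over 1.5-fold (-0.01 to 2.16), the exception to the former being Fdps at -0.013 with normexp correction and quantile normalization. That setting also left 3 members over 1.5-fold higher in MM vs CM, where 24.4% of genes were, and moved the female median to 1.54. Removal of a brightness trend, chosen after seeing the data, left 3 members over 1.5-fold higher in MM vs CM, where 10.6% of genes were. The members' median was then 0.41 while that of all genes there was -0.39, so that the members' median stayed 0.80 above it. With a 2-fold threshold 3 members passed in MM vs CM, where 8.04% of genes were over 2-fold higher. For the normexp and brightness settings the cause was not tested. Without scaling the medians were 2.43 in females and 1.39 in males, with the medians of all genes at 0.32 and 0.53, and median centring moved the latter to 0.21. Genes higher in M made up 48.5% of those over 1.5-fold apart in females and 43.4% in males. This was 79.7% and 78.4% without scaling, 61.0% in males with median centring, 38.2% and 22.7% without the brightness trend, and 32.4% in males with no filter on dim probes. The adjusted limma count was 0 in each setting, which says nothing about stability in a fit this small. By the threshold of the methods it was 3, but 0 with no filter on dim probes, 1 with normexp, without the brightness trend or without sex, 5 with median centring or without the position trend, and 7 without scaling. Genes passing it in either direction were 163 of 19298 as reported and 594 of these without scaling. With no filter on dim probes they were 182 of 35577.

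Each array was also left out in turn, with the array of the other sex in its place, an alternative chosen after seeing the data. The number of members over 1.5-fold was then 5 to 7, and the median 0.96 to 1.89, in either comparison. In females the value of 0.96 came without MF, and in males the value of 1.89 came without MM. In limma with no term for sex, the members' estimates ran from 0.35 to 1.79 without MF and from 1.03 to 3.92 without MM. With 1 array left in a group, members passing a threshold were not counted. No paired analysis was possible because each group has 1 array and the labels give no replicate numbers. Signal over background limits the second Fdft1 probe and Idi2, and the number of arrays limits the precision of every value.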
